A study of Homo sapiens with 6 samples.

Results

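The cytosolic HSP70 and HSP90 systems and their J-domain partners were compared between 293T cells given a miR-941 mimic and 293T cells given a scrambled oligonucleotide. The genes were the protein-coding genes whose symbols follow the DNAJA, DNAJB, DNAJC and HSPA series with a number, together with HSPH1, HSP90AA1, HSP90AB1, HSPD1 and HSPE1. HSPA5, HSPA9, DNAJB9, DNAJB11, DNAJC3, DNAJC10 and DNAJC19, which act in the endoplasmic reticulum (ER) or mitochondria, were left out by name. Of 94 listed genes with such symbols, 33 more were left out because they are not annotated as protein coding, and 54 remained out of 26613 genes with a count in any library. Symbols alone made the choice, so not every gene acts in the cytosol: HSPD1, HSPE1, DNAJA3 and several class C genes act in mitochondria, and HSPA13, DNAJB12, DNAJB14, DNAJC1 and DNAJC16, among others, in the ER. DNAJB8, DNAJC5B and HSPA1L also fit the name rule but had no count in any library.

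293T is a line made from the human embryonic kidney cells HEK293 that takes up nucleic acids easily. The mimic group was 3 cultures transfected with a duplex of miR-941 at 10 nM in a cationic lipid, and the mock group was 3 cultures transfected with a scrambled oligonucleotide at a concentration that was not stated. The dose of oligonucleotide and its sequence therefore cannot be told apart. The time to harvest was likewise not stated. RNA depleted of ribosomal RNA was sequenced, and the deposited values are read counts per gene. Per the labels, each group's 3 transfections were independent.

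HSP70 proteins bind exposed hydrophobic stretches of client proteins in a cycle driven by ATP. J-domain proteins deliver clients to HSP70 and start ATP hydrolysis, HSP110 proteins exchange the nucleotide so that the client is released, and HSP90 takes over many clients for late folding. J-domain proteins are divided into classes A and B, which resemble bacterial DnaJ in layout, and class C, which share only the J domain and work at special sites. When unfolded proteins accumulate, the transcription factor HSF1 binds heat shock elements in promoters and induces many of these genes. A microRNA mimic loads a strand onto Argonaute proteins. Bases 2 to 8 of the strand, called the seed, then pair with sites in the 3′ untranslated region (3′ UTR) of mRNAs, and such mRNAs are lowered.

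The mimic strand and its possible sites in these genes are shown because DNAJB2, which is described under class B, was among the fallen genes and held 3 sites, more than any other chaperone gene. The sequence of mature miR-941 is the human entry in RefSeq (GRCh38.p14), where 5 loci on chromosome 20 encode it, and its capitals mark the seed. In the other lines the capitals mark GCCGGGT, the DNA letters that pair with the seed, within the sense strand of GENCODE release 29 transcripts (GRCh38). Each site lies in the longest annotated 3′ UTR of its gene.
hsa-miR-941: cACCCGGCugugugcacaugugc
DNAJB2 site 1, chr2:219285672-219285678, plus strand: tggggaggctaGCCGGGTggggcgggagc
DNAJB2 site 2, chr2:219286005-219286011, plus strand: ctgagctggatGCCGGGTtccagaatcgc
DNAJB2 site 3, chr2:219286133-219286139, plus strand: ggcgggtggggGCCGGGTgggaggtggca
DNAJB6 site, chr7:157410352-157410358, plus strand: ctgtggcttagGCCGGGTggtctcgtgct
DNAJC18 site, chr5:139412553-139412559, minus strand: gtagagagtcgGCCGGGTgcactggctca

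In all, 4 of 48 tested chaperone genes (8.33%) carried such a site in the 3′ UTR, against 706 of 13110 tested genes with an annotated 3′ UTR (5.39%). None of the 5 sites shown was followed by A. The sites of DNAJB2 lay at bases 685, 1018 and 1146 of a 3′ UTR of 1913 bases, all in exon 9 of 9. The DNAJB6 site lay at base 244 of 6839 and in only 1 of 5 annotated transcripts with a 3′ UTR. The DNAJC18 site was found in 1 of 6 such transcripts.

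**Figure D1:**
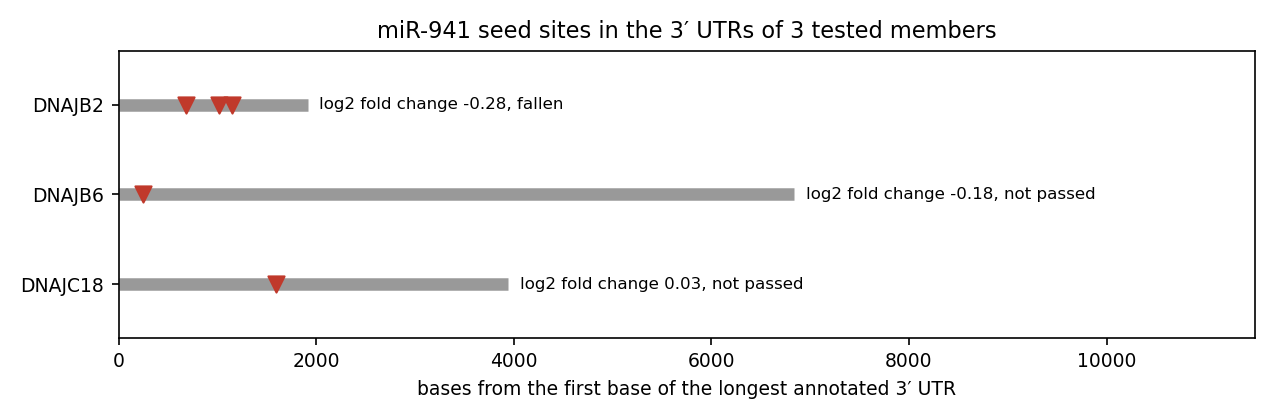
Positions of miR-941 seed sites (red triangles) along the longest annotated 3′ UTR (grey bars, in bases from its first base) of 3 tested chaperone genes, with the log2 fold change of mimic over mock. DNAJB2 has 3 sites in the shortest of these UTRs and fell, while DNAJB6 and DNAJC18, with 1 site each, did not pass the test.

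The libraries held 7651046, 7168077 and 6401918 counts in the mimic group and 7405330, 7178783 and 6079420 counts in the mock group. Levels are given as CPM, the gene's count scaled to the library total and to TMM factors, with SDs over 3 libraries per group, and differences as log2 fold changes of mimic over mock with standard errors. Of the markers of HEK293 cells, PAX2, NEFM, VIM, KRT8 and KRT18 were detected and NEFL was listed at 0. Of the markers of other cells, PTPRC, PECAM1, MS4A1 and HBB were at 0, COL3A1, ALB and CDH5 reached at most 0.418 CPM, and COL1A1 lay between 35.5 and 41.0 CPM. The 6 HEK293 markers together had 1864 to 1952 CPM in mimic libraries and 1764 to 1873 CPM in mock libraries, and NEFM (0.55 ± 0.07) and KRT18 (0.18 ± 0.05) rose on the log2 scale. The 8 markers of other cells together had 36.3 to 41.4 CPM in mimic libraries and 35.9 to 38.9 CPM in mock libraries. The part of these markers in the chaperone results was not tested. FKBP1A, a prolyl isomerase and the strongest fallen gene by p, had 59.7, 62.3 and 60.1 CPM in the mimic group against 227, 224 and 230 CPM in the mock group. On principal components of all tested genes, mimic replicate 3 stood away from its group on component 2 (-18.9, where mimic replicates 1 and 2 had 8.44 and 13.6), and mock replicate 3 on component 3 (18.6, where mock replicates 1 and 2 had -11.6 and -8.31). In bulk RNA, fewer cells of a type and less RNA per cell cannot be told apart.

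The chaperone mRNAs differed little between the groups. Of 48 tested genes, 5 rose in mimic cells (HSPD1, HSPA8, DNAJC2, DNAJC30 and DNAJB5), 3 fell (DNAJB2, DNAJC16 and DNAJC5), and 40 did not pass edgeR's quasi-likelihood test at an adjusted p of 0.05 over all 15607 tested genes. Across all tested genes 6.8% rose and 6.19% fell, together 13%, beside 16.7% of the chaperone genes. The changes of the 8 genes lay between 0.19 and 0.42 on the log2 scale in absolute size, and 0 of the 48 changed 2-fold or more. The median log2 fold change was 0.04 over the 48 genes and 0.00 over all tested genes, with 32 of the 48 values positive and 16 negative. The ranges of the 2 groups did not overlap in 16 of the 48 genes, against 28.3% of all tested genes. Of the 16, 11 were higher and 5 lower in mimic cells, where the shares over all tested genes were 14.4% higher and 13.9% lower. The number of risen chaperone genes was 3 without mock replicate 2 and 2 without mock replicate 3, and the number of fallen ones was 1 without mock replicate 1. DESeq2's Wald test called 2 risen and 2 fallen chaperone genes. Uniqueness was read from 100-base windows of each gene's transcript with the longest coding sequence, as the lack of an exact copy in other GENCODE 29 genes. Its other transcripts and near-identical copies were not covered. In 35 of the 48 genes at least 95% of these windows were unique. In 13 of the 48, a gene with overlapping exons had at least 25% of the gene's own level.

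**Figure D2:**
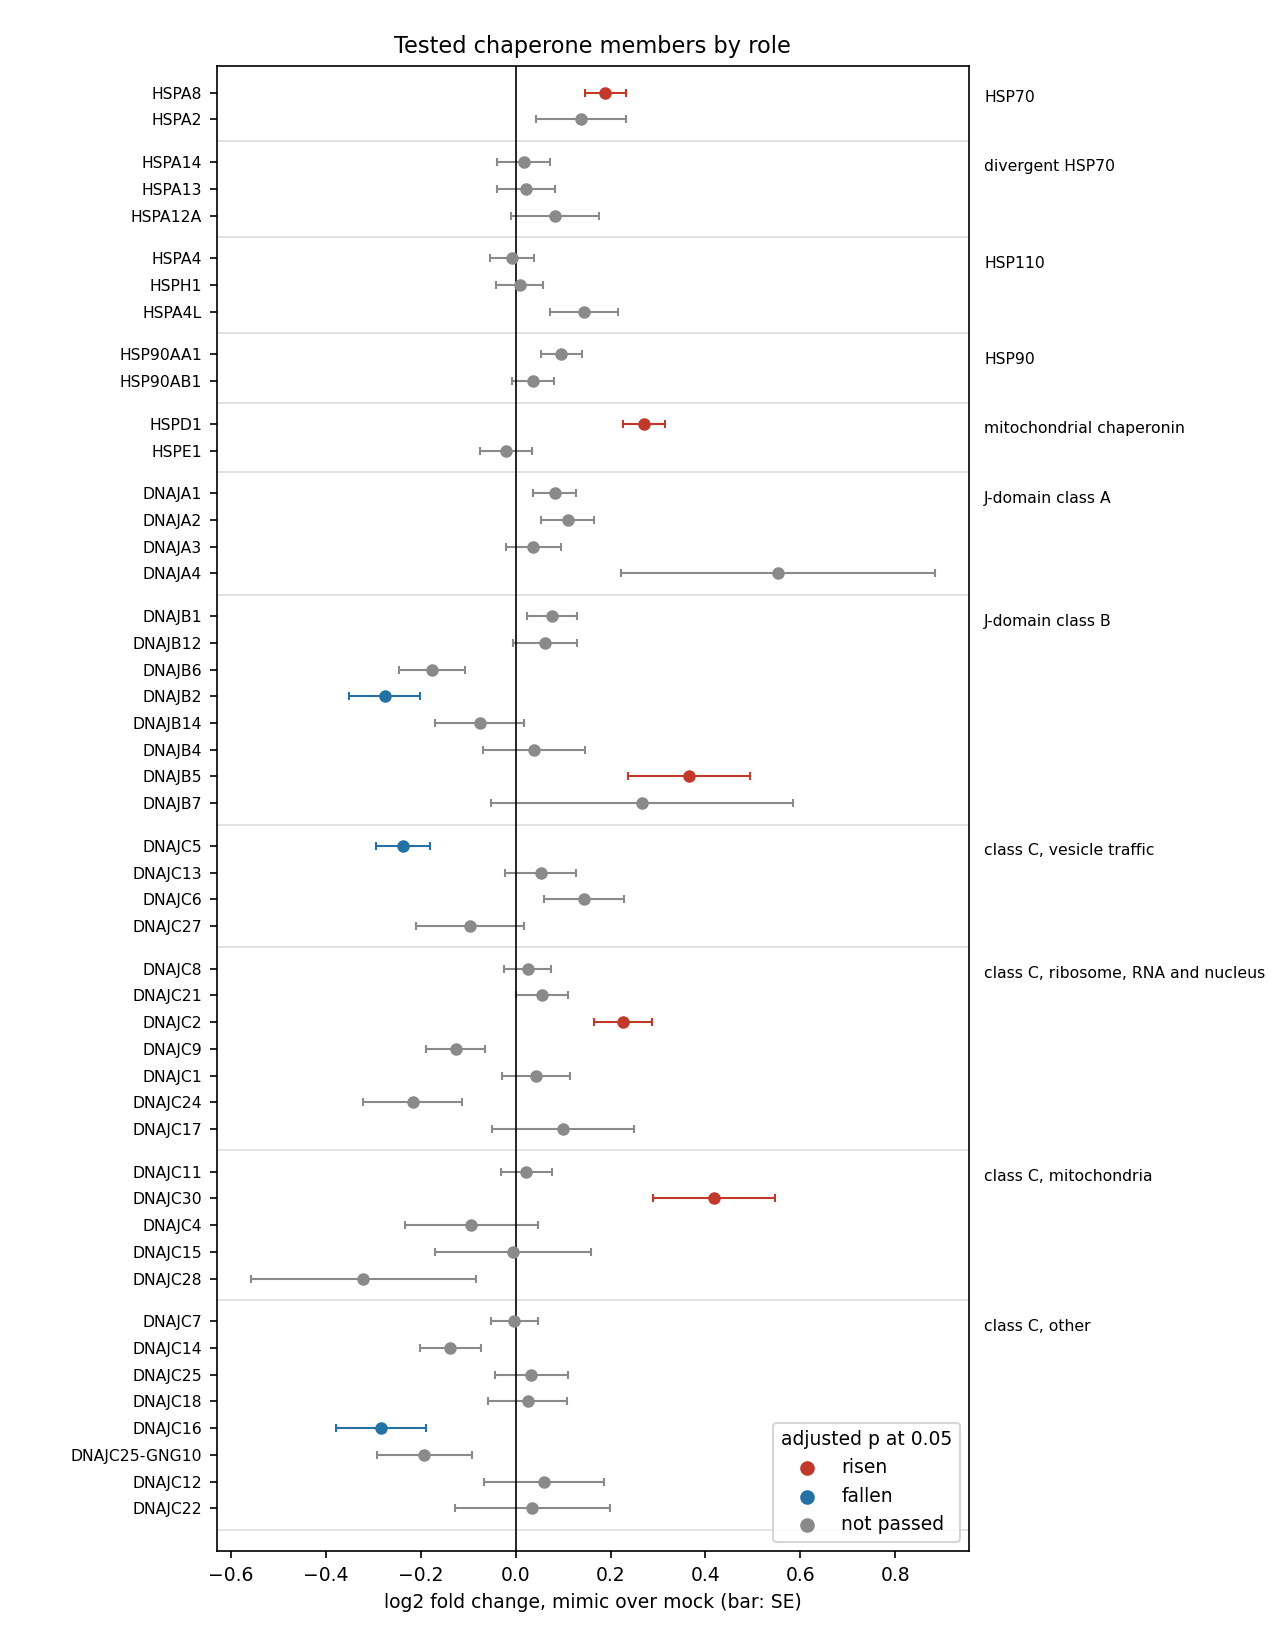
Log2 fold changes of mimic over mock (points) with standard errors (bars) for the 48 tested chaperone genes, grouped by role and ordered by level within a role, and coloured by the call of edgeR's quasi-likelihood test. The 5 risen and 3 fallen genes are spread over 7 of the 11 roles, and most points lie near 0.

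In library totals, the 48 genes together took 9885, 9472 and 9951 CPM in mimic libraries against 9287, 9184 and 9168 CPM in mock libraries. Every mimic library was above every mock library, with means of 9769 ± 259 CPM and 9213 ± 64.9 CPM (SD, n = 3 each). Of the difference of 556 CPM, HSPA8 made up 248 CPM, HSP90AA1 131 CPM and HSPD1 105 CPM. These sums follow the few most abundant genes: HSP90AA1, HSPA8 and HSP90AB1 ranked 10, 12 and 14 by mean CPM among all tested genes. Per kilobase of exon, the mean level was 596 CPM for HSP90AB1, 390 for HSPA8, 373 for HSP90AA1, 133 for HSPD1 and 132 for DNAJA1.

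HSPA8, on chromosome 11, encodes HSC70, the constitutive cytosolic HSP70. It had 2001, 1907 and 2140 CPM in the mimic libraries, against 1781, 1765 and 1759 CPM in the mock libraries. All mimic libraries were above all mock libraries, and the mock values were much closer together than the mimic values. HSPA8 rose by 0.19 ± 0.04 on the log2 scale (SE), a fold of 1.14 (adjusted p = 0.00127, edgeR's quasi-likelihood test). Mimic replicate 3 was the highest library, and without it the log2 fold change was 0.14, with an adjusted p of 0.0044. All windows of 100 bases of the HSPA8 transcript with the longest coding sequence were unique to the gene among GENCODE 29 transcripts. Summing HSPA8 with its named pseudogenes gave 0.19.

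HSPA2, another HSP70 gene and best known from the testis, had 28.4 ± 1.02 CPM in mimic cells and 25.8 ± 2.14 CPM in mock cells (SD, n = 3 each) and a log2 fold change of 0.14 ± 0.10, which did not pass the test. HSPA6, a stress-inducible HSP70 gene, had 20, 9 and 10 counts in the mimic libraries against 9, 9 and 5 counts in the mock libraries, too few to be tested. HSPA1A and HSPA1B, the main stress-inducible HSP70 genes, had 0 counts in every mimic library and 0, 1 and 0 counts in the mock libraries for each gene. These zeros cannot be read as a lack of the mRNA. The 2 genes share most of their sequence (30.1% of the 100-base windows of HSPA1A and 27.3% of those of HSPA1B were unique), and of 70 protein-coding genes within 500 kb of HSPA1A, 58 had under 10 counts over the 6 libraries (82.9%), against 25.9% of 19899 other protein-coding genes. The broadly expressed neighbours DDX39B, VARS and CLIC1 were also listed at 0. Whether the stress-inducible HSP70 genes differed between the groups could therefore not be measured.

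The 3 divergent HSP70 genes did not pass the test. HSPA14, the HSP70 of the ribosome-associated complex, had 117 ± 7.86 CPM in mimic cells and 116 ± 4.60 CPM in mock cells (SD, n = 3 each), with a log2 fold change of 0.02 ± 0.06. HSPA13 and HSPA12A had log2 fold changes of 0.02 ± 0.06 and 0.08 ± 0.09. HSPA12B had 2 to 7 counts per library and was not tested.

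The nucleotide exchange factors of the HSP110 family did not pass the test. HSPH1, or HSP105, had 192, 183 and 200.1 CPM in the mimic libraries against 197, 186 and 187 CPM in the mock libraries. These values overlapped, with a log2 fold change of 0.01 ± 0.05 (adjusted p = 0.943, edgeR's quasi-likelihood test). HSPA4 had 339 ± 17.3 CPM in mimic cells and 341 ± 7.71 CPM in mock cells, and HSPA4L had 55.3 ± 2.18 CPM in mimic cells and 50.1 ± 3.32 CPM in mock cells (SD, n = 3 each). The log2 fold change of HSPA4L was 0.14 ± 0.07, and its mimic libraries were all above its mock libraries, but it did not pass the test.

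Neither cytosolic HSP90 passed the test. HSP90AA1, the stress-responsive form, had 2035, 1966 and 2061 CPM in the mimic libraries against 1887, 1913 and 1869 CPM in the mock libraries. All mimic libraries were above all mock libraries, but the log2 fold change was 0.10 ± 0.04 (adjusted p = 0.13, edgeR's quasi-likelihood test). HSP90AB1, the constitutive form, had 1883, 1718 and 1791 CPM in the mimic libraries against 1796, 1711 and 1751 CPM in the mock libraries. Here the groups overlapped, and the log2 fold change was 0.04 ± 0.04 (95% interval -0.05 to 0.12, adjusted p = 0.666).

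The mitochondrial chaperonin showed a change in 1 of its 2 subunits. HSPD1 encodes HSP60, which forms the folding barrel, and HSPE1 encodes HSP10, its lid. HSPD1 had 640, 601 and 606 CPM in the mimic libraries, against 503, 507 and 523 CPM in the mock libraries. The gap between the groups was larger than the spread within either. HSPD1 rose by 0.27 ± 0.04 on the log2 scale, a fold of 1.21 (adjusted p = 4.48e-06, edgeR's quasi-likelihood test). HSPE1 had 131, 133 and 146 CPM in the mimic libraries against 136, 131 and 148 CPM in the mock libraries. The HSPE1 values overlapped, with a log2 fold change of -0.02 ± 0.05 (95% interval -0.13 to 0.09, adjusted p = 0.871).

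The ratio of HSPD1 to HSPE1 counts within a library, chosen after the values were seen from 4 ratios computed, was 4.88, 4.54 and 4.15 in the mimic libraries and 3.68, 3.86 and 3.54 in the mock libraries. The ranges did not overlap. An exact two-sided permutation test gave p = 0.1, the smallest that 3 against 3 libraries allow. Any ratio whose ranges do not overlap must give this p, so it adds nothing to the ranges. The same test gave 0.1 for the ratios of HSPA8 to HSP90AA1 and of DNAJB2 to DNAJB1, and 0.2 for HSP90AA1 to HSP90AB1. A separation of this kind was therefore not particular to the chaperonin pair. The 2 genes lie head to head on chromosome 2, share 281 bases of annotated exon on opposite strands, and had 96.1% and 66.5% of unique 100-base windows (HSPD1 and HSPE1). The strand setting of the counting was not stated, so reads from the shared bases cannot be assigned. The pseudogene HSPD1P1 rose by 0.28 ± 0.07, and summing HSPD1 with its named pseudogenes gave 0.26 (adjusted p = 5.2e-06, edgeR's quasi-likelihood test).

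**Figure D3:**
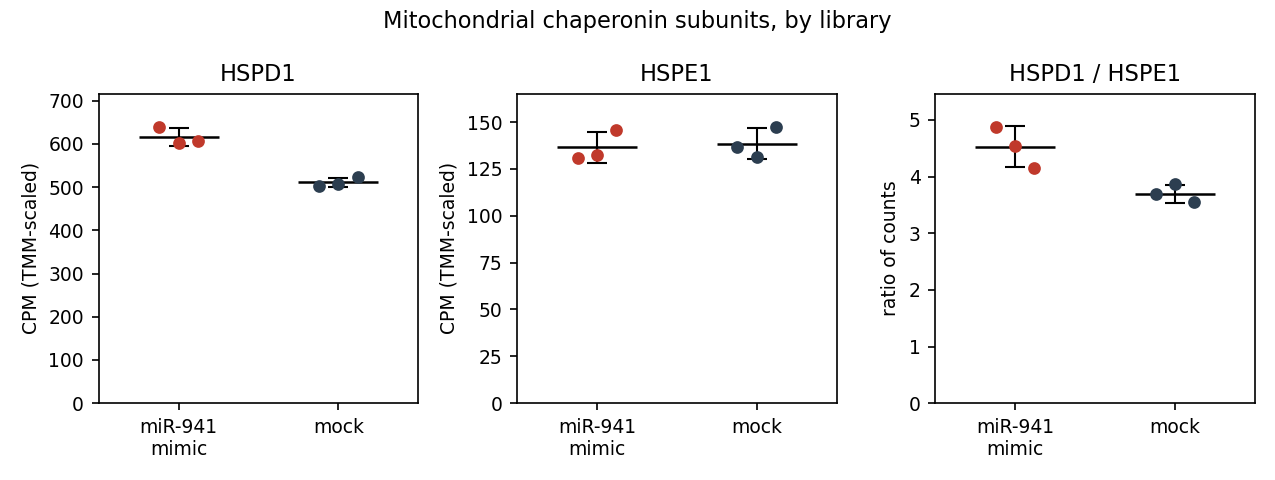
HSPD1 and HSPE1 levels in TMM-scaled CPM and the ratio of their counts in each library (points), with group means (horizontal lines) and SDs (error bars), for 3 mimic (red) and 3 mock (dark) libraries. HSPD1 and the ratio are higher in all mimic libraries, while the HSPE1 values overlap.

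The promoters of HSPA8 and HSPD1 are shown because both genes rose and both promoters hold sequence matches to heat shock elements, the letters bound by HSF1. Binding of HSF1 was not measured. The windows run from 250 bases before to 50 bases after the annotated start in RefSeq (GRCh38.p14), and capitals mark matches to the 3-unit elements GAANNTTCNNGAA or TTCNNGAANNTTC. Each of these is the reverse complement of the other, so both strands are covered, and each contains both 2-unit elements, GAANNTTC and TTCNNGAA.
HSPA8, chr11:123062087-123062386, minus strand: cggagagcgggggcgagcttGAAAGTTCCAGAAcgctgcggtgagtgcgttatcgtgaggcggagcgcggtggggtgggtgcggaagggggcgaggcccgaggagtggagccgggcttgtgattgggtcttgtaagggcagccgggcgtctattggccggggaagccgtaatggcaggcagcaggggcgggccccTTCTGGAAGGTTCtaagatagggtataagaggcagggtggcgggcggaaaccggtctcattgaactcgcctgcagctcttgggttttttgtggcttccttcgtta
HSPD1, chr2:197499791-197500090, minus strand: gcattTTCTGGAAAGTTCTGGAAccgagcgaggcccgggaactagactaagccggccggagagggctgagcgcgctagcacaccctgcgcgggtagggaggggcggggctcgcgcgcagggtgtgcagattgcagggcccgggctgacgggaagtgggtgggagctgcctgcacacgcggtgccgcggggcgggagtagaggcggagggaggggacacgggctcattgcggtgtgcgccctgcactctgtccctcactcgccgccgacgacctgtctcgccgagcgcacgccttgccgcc

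HSPA8 had a match starting 230 bases before the start and another starting 55 bases before it. In the HSPD1 window shown, matches started 245 and 240 bases before the start and overlapped each other. The window of a second annotated HSPD1 start, chr2:197500225-197500524, held no 3-unit or 2-unit match. The HSPE1 window had no match, and the nearest one lay 294 bases from its start. That match is one of the HSPD1 matches, which lie between the HSPE1 start and the HSPD1 start of the window shown, upstream of both. Only the length of the window left them out for HSPE1. HSPD1 and HSPE1 are therefore not shown to differ in such elements, and whether these matches act on HSPE1 was not tested. Of 44 tested chaperone genes with a promoter in the table, 6 (13.6%) held a 3-unit match (HSPA8, HSPD1, HSP90AA1, HSP90AB1, DNAJA1 and DNAJB6), against 0.457% of 10938 tested genes and 0.608% of 27305 genes in all. Of these 6 genes, HSPA8 and HSPD1 rose and the other 4 did not pass the test. HSP90AB1 held 2 such matches in a window, as many as HSPA8 or HSPD1, and had a log2 fold change of 0.04. HSP90AA1, DNAJA1 and DNAJB6 held 1 each, with log2 fold changes of 0.10, 0.08 and -0.18. A 3-unit match was found in 2 of the 5 risen genes and 0 of the 3 fallen genes, and the risen genes DNAJB5, DNAJC2 and DNAJC30 had none. Any promoter with at least 1 2-unit element was found for 29.5% of the 44 chaperone genes and for 13.7% of the tested genes.

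Class A J-domain proteins, which include the main cytosolic partners of HSC70, held no gene that passed the test. DNAJA1 had 377, 371 and 360 CPM in the mimic libraries against 361, 339 and 346 CPM in the mock libraries. The values overlapped by a narrow margin, and the log2 fold change was 0.08 ± 0.05 (adjusted p = 0.256, edgeR's quasi-likelihood test). DNAJA2 had 115 ± 5.74 CPM in mimic cells and 107 ± 1.36 CPM in mock cells, and DNAJA3, which acts in mitochondria, had 97.9 ± 3.98 CPM in mimic cells and 95.3 ± 2.29 CPM in mock cells (SD, n = 3 each). DNAJA4 was low, at 2.46 ± 0.735 CPM in mimic cells and 1.62 ± 0.41 CPM in mock cells, and its log2 fold change of 0.55 ± 0.33 did not pass the test.

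Class B held 1 risen and 1 fallen gene among 8 tested. DNAJB1, or HSP40, the stress-inducible partner of HSP70, had 151, 141 and 139 CPM in the mimic libraries against 136, 135 and 138 CPM in the mock libraries. Every mimic library was above every mock library, but the log2 fold change of 0.08 ± 0.05 did not pass the test (adjusted p = 0.382, edgeR's quasi-likelihood test). DNAJB5, on chromosome 9, had 14.4, 15.2 and 17.6 CPM in the mimic libraries against 11.4, 12.4 and 12.8 CPM in the mock libraries. The groups did not overlap, and DNAJB5 rose by 0.37 ± 0.13 with an adjusted p of 0.0482. This call lay at the threshold: it was lost without mimic replicate 2 or 3 or any 1 of the 3 mock replicates, and with DESeq2's Wald test (adjusted p = 0.202).

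DNAJB2, on chromosome 2, encodes HSJ1, a J-domain protein enriched in neurons that binds ubiquitin and guides misfolded clients to the proteasome. It had 45.1, 43.9 and 41.4 CPM in the mimic libraries, against 54.5, 51.0 and 52.6 CPM in the mock libraries. The groups were clearly apart, with all mimic libraries lower. DNAJB2 fell by 0.28 ± 0.07 on the log2 scale, a fold of 0.826 (adjusted p = 0.00623, edgeR's quasi-likelihood test). Without mock replicate 1 the log2 fold change was -0.25 and the adjusted p 0.0542. All 100-base windows of the DNAJB2 transcript with the longest coding sequence were unique to the gene.

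The 3 seed sites of DNAJB2 were read against all genes grouped by their number of sites in the longest 3′ UTR. Of genes with 3 or more sites, 2 of 12 fell (16.7%), against 7 of 61 with 2 sites (11.5%), 72 of 633 with 1 site (11.4%) and 838 of 12404 with none (6.76%). These 12 genes include DNAJB2 itself, which is 1 of the 2 that fell, so this share is not independent of it. The median log2 fold change of the 12 genes with 3 or more sites was 0.07. The differences between these shares were not tested. DNAJB6 and DNAJC18, with 1 site each, did not pass the test, and DNAJC18 had a log2 fold change of 0.03 ± 0.08. DNAJB6, a suppressor of polyglutamine aggregation, had 57.2 ± 2.84 CPM in mimic cells and 64.7 ± 4.36 CPM in mock cells (SD, n = 3 each), a log2 fold change of -0.18 ± 0.07 (adjusted p = 0.0828, edgeR's quasi-likelihood test). The other class B genes (DNAJB4, DNAJB7, DNAJB12 and DNAJB14) had log2 fold changes from -0.08 to 0.27. DNAJC5 and DNAJC16, the other fallen genes, had no seed site in the 3′ UTR.

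Class C genes that act at vesicles held the fallen gene DNAJC5. DNAJC5, on chromosome 20, encodes cysteine string protein alpha, which keeps SNARE proteins of secretory and synaptic vesicles in shape. It had 108, 108 and 95.5 CPM in the mimic libraries, against 124, 118 and 126 CPM in the mock libraries. The groups did not overlap, and mimic replicate 3 was the lowest library. DNAJC5 fell by 0.24 ± 0.06 on the log2 scale (adjusted p = 0.00187, edgeR's quasi-likelihood test), and without mimic replicate 3 the log2 fold change was -0.19. The other genes of this class were DNAJC6, or auxilin, which uncoats clathrin vesicles (0.14 ± 0.08), DNAJC13 of endosomes (0.05 ± 0.08) and the small GTPase DNAJC27 (-0.10 ± 0.11). DNAJC6 has a seed site in its coding sequence, as do 6.18% of tested genes.

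Among 7 class C genes of the ribosome, RNA processing, the nucleus and the ER membrane, DNAJC2 rose. DNAJC2, on chromosome 7, pairs with HSPA14 in the ribosome-associated complex that meets nascent chains. It had 93.5, 94.9 and 97.4 CPM in the mimic libraries, against 88.7, 79.9 and 74.8 CPM in the mock libraries. The mimic values lay close together and the mock values were spread, with mock replicate 1 nearest to the mimic group. DNAJC2 rose by 0.23 ± 0.06 on the log2 scale (adjusted p = 0.00735, edgeR's quasi-likelihood test), while its partner HSPA14 did not pass. The call was lost without mock replicate 3 (0.17, adjusted p = 0.106, edgeR's quasi-likelihood test) and with DESeq2's Wald test (adjusted p = 0.0571). DNAJC2 shares 628 bases of exon on opposite strands with PMPCB, whose level was 139% of its own and whose log2 fold change was 0.04. The other 6 genes had log2 fold changes from -0.22 for DNAJC24, which acts in diphthamide synthesis, to 0.10 for DNAJC17, with DNAJC8, a splicing factor, the most abundant (164 CPM).

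Among 5 class C genes of mitochondria, DNAJC30 rose. DNAJC30, on chromosome 7, takes part in the upkeep of respiratory complex I. It had 16.5, 15.4 and 16.2 CPM in the mimic libraries, against 13.4, 11.7 and 10.7 CPM in the mock libraries. The groups did not overlap, and DNAJC30 rose by 0.42 ± 0.13 (adjusted p = 0.0198, edgeR's quasi-likelihood test). The call was lost without mimic replicate 1 (adjusted p = 0.0822), mock replicate 2 (0.0711) or mock replicate 3 (0.112), and with DESeq2's Wald test (0.12). DNAJC30 shares 359 bases with BUD23 on the opposite strand, whose level was 921% of its own and whose log2 fold change was 0.06, and the part of reads from BUD23 in its count was not tested. DNAJC11, DNAJC15, DNAJC4 and DNAJC28 had log2 fold changes from -0.32 to 0.02.

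Of the remaining 8 class C genes, DNAJC16 fell. DNAJC16, on chromosome 1, is an ER J-domain protein linked to autophagosome formation. It had 24.7, 24.0 and 27.9 CPM in the mimic libraries, against 31.7, 32.8 and 28.0 CPM in the mock libraries. The highest mimic library and the lowest mock library nearly met. DNAJC16 fell by 0.28 ± 0.09 (adjusted p = 0.034, edgeR's quasi-likelihood test). Its call was lost without mimic replicate 1 or 2 or mock replicate 1 or 2, with adjusted p between 0.122 and 0.168, and with DESeq2's Wald test (adjusted p = 0.165). DNAJC7, a co-chaperone that links HSP70 and HSP90, was the most abundant of the group at 215 ± 13.1 CPM in mimic cells and 215 ± 4.38 CPM in mock cells (SD, n = 3 each). The other 6 genes had log2 fold changes between -0.19 and 0.06. Among them the readthrough gene DNAJC25-GNG10 shares 358 bases of exon with DNAJC25 and 1090 with GNG10. Only 14.2% of its 100-base windows were unique, against 88.0% for DNAJC25. The readthrough count therefore cannot be separated from those of DNAJC25 and GNG10. DNAJB13 and DNAJC5G, with at most 10 counts per library, were not tested.

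**Figure D4:**
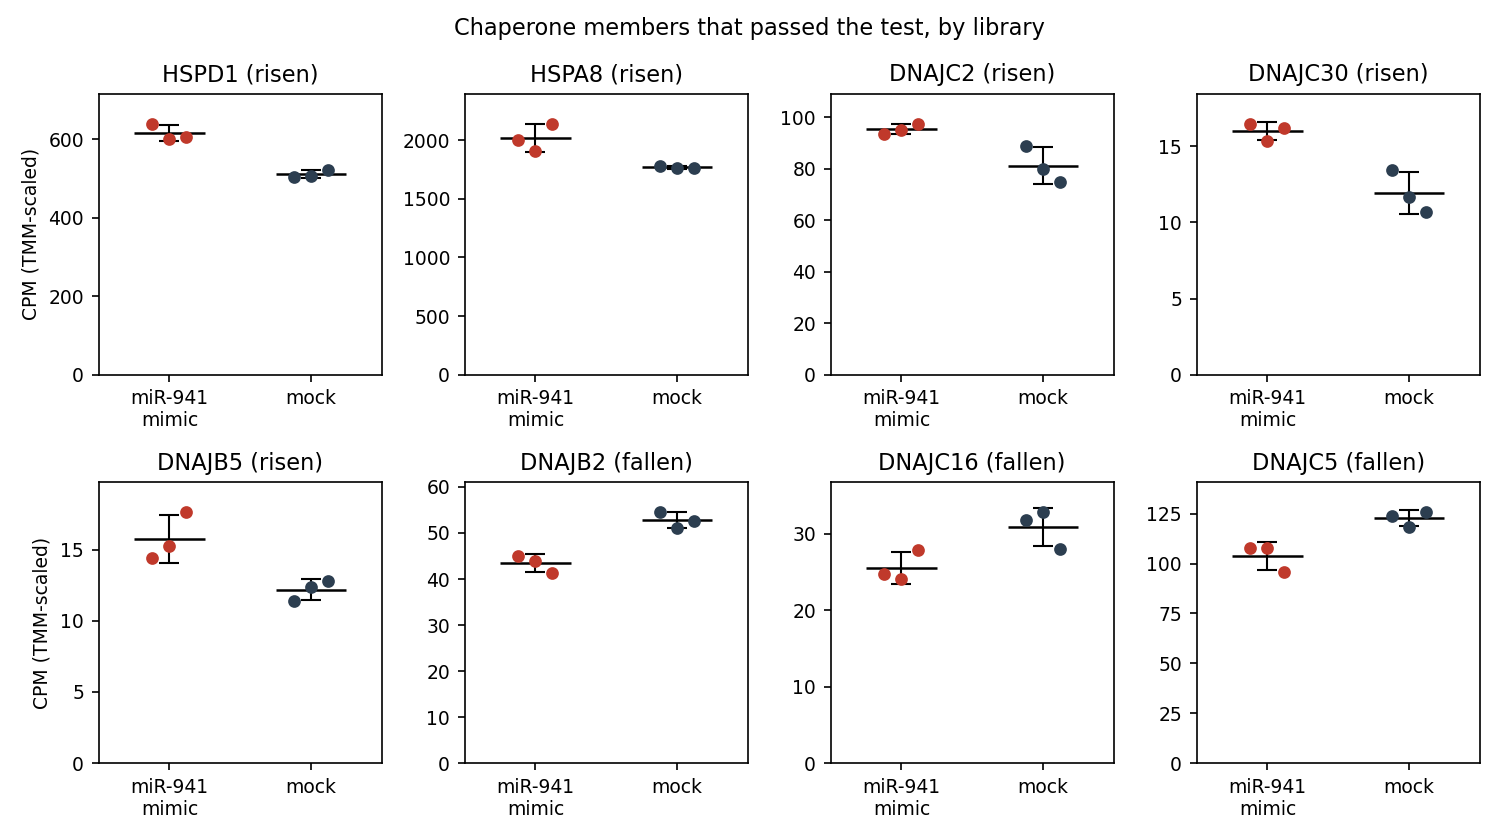
CPM, scaled with TMM factors, of the 8 chaperone genes that passed the test, in each library (points), with group means (horizontal lines) and SDs (error bars), for 3 mimic (red) and 3 mock (dark) libraries. In all 8 panels the mimic points lie wholly above or wholly below the mock points, with DNAJC16 showing the narrowest gap.

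Genes that work with these chaperones were read from lists made by known function. The counts of each list below stand beside 6.8% risen and 6.19% fallen over all tested genes. Of 32 co-chaperones without a DNAJ symbol, 7 rose, 2 fell and 23 did not pass, with a median log2 fold change of 0.04. This list was not limited to protein-coding genes. The 7 include AHSA2P, which has the symbol of a pseudogene, with a log2 fold change of 0.23 ± 0.07 and overlapping groups. FKBP4, the immunophilin FKBP52 of the HSP90 and steroid receptor complex, fell by 0.57 ± 0.05 to 251 ± 7.38 CPM in mimic cells, against 373 ± 7.62 CPM in mock cells. Its relative FKBP5 rose by 0.27 ± 0.05, at 148 ± 3.71 CPM in mimic cells and 123 ± 6.93 CPM in mock cells. The 2 immunophilins of the same complex thus moved in opposite directions. The HSP90 cochaperones NUDC and NUDCD3 rose by 0.30 ± 0.05 and 0.39 ± 0.07. NUDC has 2 seed sites in its 3′ UTR and FKBP4 has 0.

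Among 13 tested subunits of the cytosolic chaperonin TRiC and of prefoldin, which hands it unfolded actin and tubulin, 2 fell and 11 did not pass, with a median log2 fold change of -0.02. Both fallen genes were prefoldin subunits: PFDN1 had 67.1 ± 1.78 CPM in mimic cells and 86.0 ± 5.93 CPM in mock cells, and VBP1 had 68.2 ± 2.07 CPM in mimic cells and 85.2 ± 5.81 CPM in mock cells (SD, n = 3 each). The heat shock factors did not pass, with log2 fold changes of 0.05 ± 0.07 for HSF1 and 0.24 ± 0.14 for HSF4. Of 24 tested genes known to be induced through HSF1, 3 rose (HSPD1, HSPA8 and AHSA1), 2 fell (FKBP4 and BAG3) and 19 did not pass, with a median of 0.03. BAG3, a nucleotide exchange factor of HSP70 in selective autophagy, fell by 0.29 ± 0.06 on the log2 scale.

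Of 12 chaperones of the ER and mitochondria outside the rule, 5 rose and 7 did not pass, with a median of 0.11. HSP90B1, the HSP90 of the ER, had 1184 ± 45.8 CPM in mimic cells and 946 ± 46.3 CPM in mock cells, and HSPA5, or BiP, its HSP70, had 730 ± 45.2 CPM in mimic cells and 613 ± 16.4 CPM in mock cells (SD, n = 3 each). Their log2 fold changes were 0.32 ± 0.04 and 0.25 ± 0.05. GRPEL2, a mitochondrial exchange factor, rose by 0.40 ± 0.09, and HYOU1, an ER exchange factor, by 0.17 ± 0.05. The HYOU1 call was lost without mimic replicate 1 (adjusted p = 0.0857, edgeR's quasi-likelihood test), mock replicate 2 (0.0656) or mock replicate 3 (0.0635). Whether these lists differ from the cytosolic genes was not tested.

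**Figure D5:**
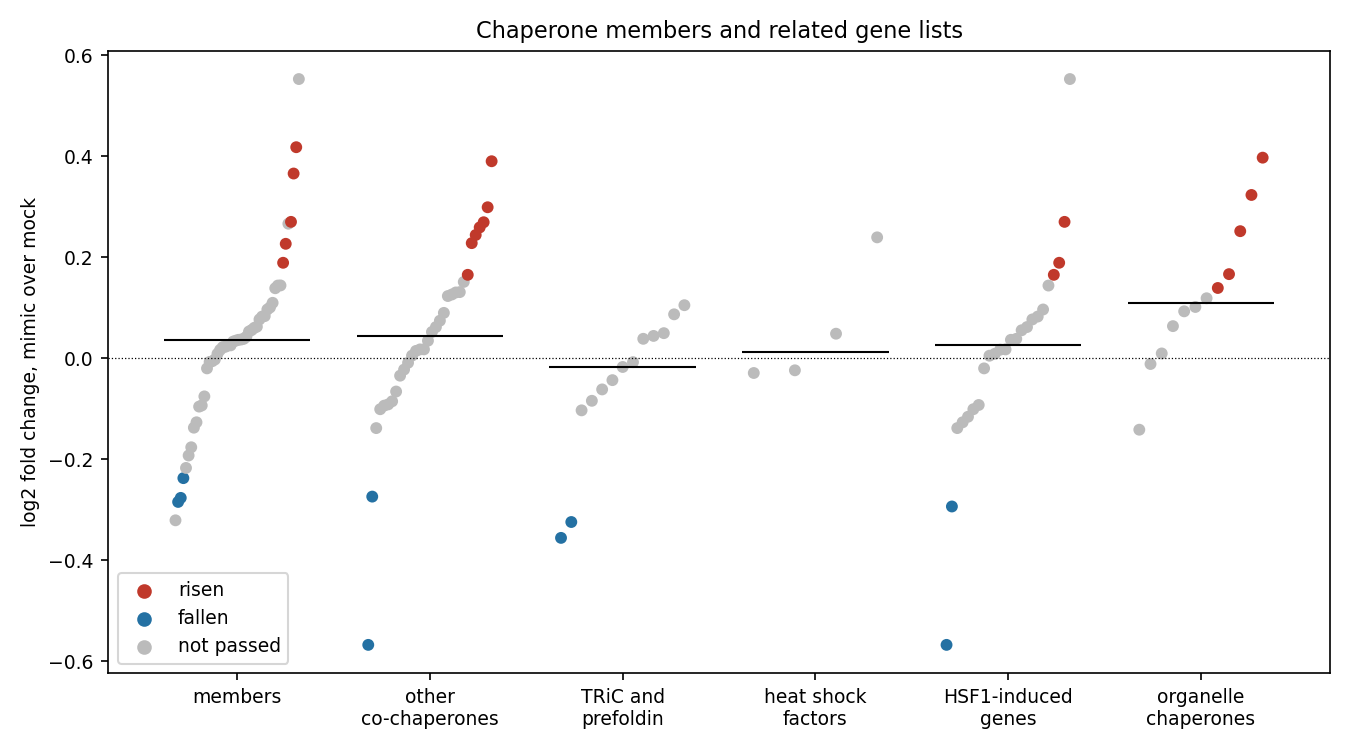
Log2 fold change of mimic over mock for each tested gene (points) of the 48 chaperone genes and 5 related lists, with the median of each list (horizontal line), coloured by the call of edgeR's quasi-likelihood test. The lists share genes, so the same point can appear in more than 1 column, and FKBP4 is the lowest point in both lists that hold it.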

How the data were processed

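The deposited values are whole-number read counts per Ensembl gene, 1 table per library, deposited by the authors without scaling. Per the submitters' processing notes, STAR, edgeR and hg19 were used. The counting program, the annotation and its strand setting were not stated. Genes missing from a library's table were set to 0. Sequences and overlaps come from GRCh38, and no coordinate was converted.

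Symbols came from a reference list of gene names that covered 25141 of the 26613 genes, and otherwise from GENCODE release 29. The gene types of the 54 chaperone genes came from GENCODE release 29. The filterByExpr filter left 15607 genes, with 99.7% of counts, and TMM factors were 0.994 to 1.01. The test was edgeR's robust quasi-likelihood test on the group alone, two-sided, at an adjusted p of 0.05 (Benjamini-Hochberg, 15607 genes). SEs were derived from the test statistic, and the biological coefficient of variation was 3.82%. The software was DESeq2 1.42.0, limma 3.58.1 and edgeR 4.0.16 in R 4.3.3. At these depths 3 counts equal 0.392 to 0.493 CPM, and the counts hold no molecular identifiers. The test was checked on simulated counts of genes at all levels. It recovered 15 of 50 genes changed by 0.25 on the log2 scale (30%) and 33 of 50 changed by 0.5 (66%). With 50 genes changed at each size, the simulated share of changed genes was far below the 13% called in the data. Recovery in the data may therefore differ from these rates. Of 15407 unchanged genes, 7 were called. A gene that did not pass is therefore not shown to be unchanged.

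The chaperone genes, the related lists and the rules were chosen with earlier results of these data known. Values per library are given for genes that passed the test and for HSPA1A, HSPA1B, HSPA8, HSPH1, HSP90AA1, HSP90AB1, HSPD1, HSPE1, DNAJA1, DNAJB1 and DNAJC5, and up to 4 called genes by smallest p are named from each related list. Alternatives were DESeq2, other scalings and filters, non-robust dispersions, a replicate block, sums over near-identical genes, and each library left out. The site of 1 chaperone gene is not reported here.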

Additional observations from a re-analysis of the deposited data

How the results depend on the processing

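HSPD1, HSPA8 and DNAJC5 kept an adjusted p under 0.05 in each of 15 alternatives (other tests, scalings, filters and samples), DESeq2 and the replicate block included. Summing HSPA1A and HSPA1B, 1 of the 15, could not move any call, because the sum was not tested. It gave the main counts of 1061 risen and 966 fallen genes. DNAJB5 was lost in 11 of the 15 (adjusted p 0.0417 to 0.202 over all), DNAJC16 in 5, DNAJC30 in 4, DNAJC2 in 2, DNAJB2 in 1 and HYOU1 in 3. DESeq2 called 2 risen and 2 fallen chaperone genes, and 516 risen and 499 fallen genes in all. At a threshold of 0.01 there were 3 risen and 2 fallen chaperone genes, and at 0.1 there were 5 risen and 4 fallen. With 1 library left out, risen chaperone genes numbered 2 to 4 and fallen ones 1 to 3, and over all genes 689 to 1080 rose and 613 to 981 fell. Values near 0 changed sign for HSPH1 with library totals only (-0.00011), without mimic replicate 3 (-0.023), without mock replicate 2 (-0.0082) and without mock replicate 3 (-0.0024), and for HSPE1 without mimic replicate 1 (0.0078) and without mock replicate 3 (0.025). With 1 library left out, the log2 fold change of HSPH1 ranged from -0.023 to 0.039 and that of HSPE1 from -0.069 to 0.025. The cause of these shifts was not tested. Replicate numbers did not pair the libraries (correlations of deviations 0.0437, -0.0505 and -0.0173). The fit with the replicate block called 4 risen and 3 fallen chaperone genes and 965 risen and 854 fallen genes in all, with DNAJB5 lost. HSPA1A and HSPA1B summed still had too few counts to be tested. At this depth HSPA6 and the other untested genes had too few counts for a test, and reads shared by overlapping genes could not be resolved.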
